A study of Mus musculus with 12 samples.

Results

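The genes described here are the coactivators Yap1 and Wwtr1 (the gene of TAZ), the transcription factor genes Tead1, Tead2 and Tead4 that these coactivators bind, and 5 genes tied to their activity, Lats2, Ajuba, Amotl2, Ankrd1 and Axl. They were chosen by name, as the 10 genes whose Ensembl identifier in the count table maps to one of these mouse symbols, out of 55414 genes in the table. RNA sequencing was done on primary mouse hepatocytes, the parenchymal cells of the liver, taken from liver and labelled either Hnf4a KO or WT. The 4 groups were Hnf4a KO cells with MJ041, Hnf4a KO cells with DMSO vehicle, WT cells with MJ041 and WT cells with DMSO vehicle, each with 3 libraries. HNF4A is a nuclear receptor that maintains hepatocyte identity, and the title of the series calls MJ041 a candidate ligand of it in work on sepsis. The labels used here do not give the dose or duration of MJ041, the Hnf4a allele or how it was deleted, the age or strain of the mice, or whether the 3 libraries of a group came from separate animals. The p-values therefore measure only the spread between these libraries, which may be technical.

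YAP and TAZ are transcriptional coactivators that do not bind DNA themselves and reach their target genes through the TEAD proteins. The Hippo kinases MST1 and MST2 (Stk4 and Stk3) activate LATS1 and LATS2, which phosphorylate YAP and TAZ and keep them out of the nucleus, so the activity of the pathway is set largely at the protein level and RNA levels do not read it directly. In the liver the pathway is known for its control of organ size and of the choice between hepatocyte and biliary fate. Ankrd1, Axl, Amotl2, Ajuba and Lats2 are used as target genes of YAP and TAZ, and Amotl2, Ajuba and Lats2 also act back on the pathway.

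The libraries held between 16740761 and 17902832 counts, and each member had between 85 and 5567 counts in a library. All 10 members passed the filter on low counts. Levels are given as CPM, read counts scaled to a common library size after TMM normalization, and log2 fold changes and adjusted p-values come from edgeR's quasi-likelihood test fitted to 14919 genes, with an adjusted p below 0.05 as the threshold for a call. The targeted gene, Hnf4a, stood at 67.5 ± 8.08 CPM in KO cells with MJ041, 65.1 ± 3.57 CPM in KO cells with vehicle, 162 ± 18.6 CPM in WT cells with MJ041 and 124 ± 12.6 CPM in WT cells with vehicle (mean ± SD, n = 3). Its log2 fold change, KO against WT, was -1.26 with MJ041 (adjusted p = 6.28e-07) and -0.92 with vehicle (adjusted p = 8.86e-06). Reads of Hnf4a remained in the libraries labelled KO, and this gene-level count does not check which exons were deleted. The 10 hepatocyte markers had counts in every library and summed to between 24833 and 28955 CPM in KO libraries and between 54668 and 72406 CPM in WT libraries. Albumin made up most of that sum, and of the 10 markers 2 (Apoa1 and Serpinc1) were called higher and 7 lower in KO cells under both treatments. Of all tested genes, 26.8% were called higher and 27.6% lower with MJ041, and 27.5% and 26.9% with vehicle. Markers of Kupffer, endothelial and stellate cells were also present, and they were lowest in replicates 1 and 2 of WT cells with MJ041. For Kupffer markers the mean log2 CPM was 1.22 and 2.16 in those libraries, and it lay between 2.29 and 3.65 in the other 10.

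The first question was how the coactivator genes differed between Hnf4a KO and WT hepatocytes. Wwtr1, which encodes TAZ, was lower in KO cells by nearly the same amount with MJ041 and with vehicle, while the difference of Yap1 was small and did not pass the test under either treatment. In KO cells Wwtr1 stood at 70.1, 67.5 and 67.9 CPM with MJ041 and at 69.6, 69.1 and 68.3 CPM with vehicle. In WT cells it stood at 131, 137 and 131 CPM with MJ041 and at 127, 129 and 136 CPM with vehicle. All 6 KO libraries lay far below all 6 WT libraries, with a narrow spread within each group. Between KO and WT cells Wwtr1 differed by a log2 fold change of -0.95 with MJ041 (SE 0.046, adjusted p = 5.09e-09) and -0.92 with vehicle (SE 0.046, adjusted p = 7.39e-09). In these bulk libraries, fewer cells that express a gene and less RNA of it per cell cannot be told apart.

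Yap1 stood at 150.2, 149 and 152 CPM in KO cells with MJ041 and at 156, 154 and 151 CPM in KO cells with vehicle. In WT cells Yap1 stood at 164, 164 and 155 CPM with MJ041 and at 166, 155 and 154 CPM with vehicle. With MJ041 every KO library was below every WT library, by a small margin, and with vehicle the libraries overlapped. For Yap1 the log2 fold change was -0.096 with MJ041 (95% interval -0.20 to 0.0060, adjusted p = 0.103) and -0.043 with vehicle (95% interval -0.14 to 0.059, adjusted p = 0.463). The value with MJ041 passed in 3 of 12 fits that left out 1 library, without replicate 3 of WT cells with MJ041 (adjusted p = 0.0476) and without replicate 2 (adjusted p = 0.0468) or replicate 3 (adjusted p = 0.0479) of WT cells with vehicle. The vehicle libraries are not among those compared here and enter only through the filter, scaling and spread that all libraries share. Over the 12 fits the adjusted p reached 0.198.

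Per length of merged exons, the ratio of Wwtr1 to Yap1 was 0.904, 0.876 and 0.864 in KO cells with MJ041 and 0.862, 0.869 and 0.878 in KO cells with vehicle. The same ratio was 1.54, 1.62 and 1.64 in WT cells with MJ041 and 1.48, 1.61 and 1.70 in WT cells with vehicle. The ratio was lower in each KO library than in any WT library. Which of the 2 genes is the more abundant in WT cells depends on the length assumed, because with the longest annotated transcript as length the WT ratios lay between 0.861 and 0.989. The summed level of both genes per kilobase of merged exons lay between 30.2 and 31.5 CPM in KO libraries and between 43.6 and 46.4 CPM in WT libraries.

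**Figure D1:**
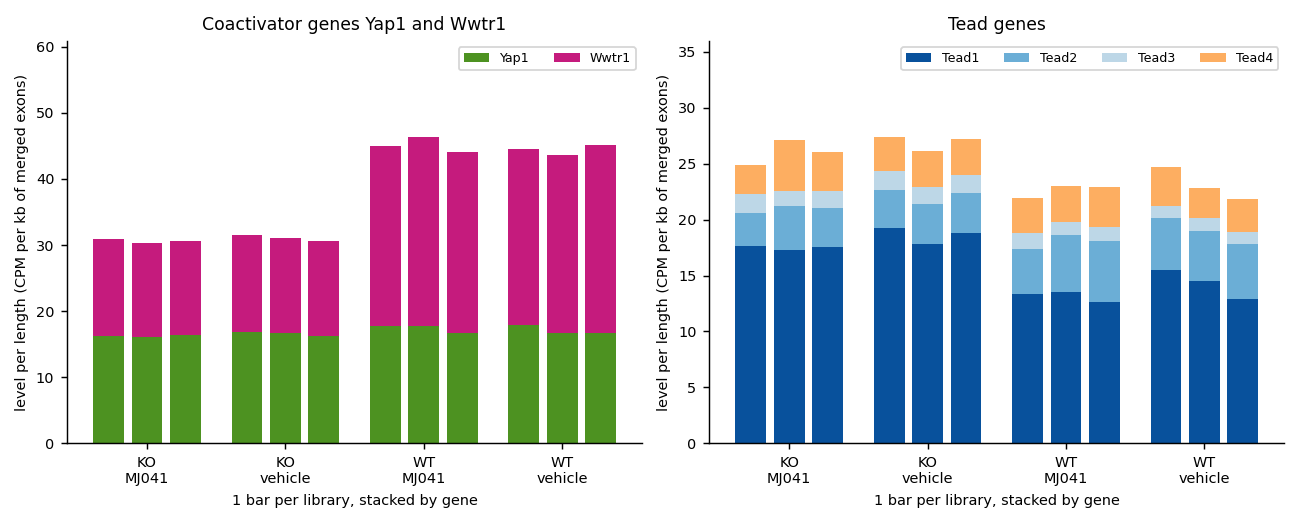
Level per length (CPM per kilobase of merged exons) of Yap1 and Wwtr1, left, and of the 4 Tead genes, right, with 1 stacked bar per library in each group. The Wwtr1 segment is shorter in all 6 KO libraries while the Yap1 segment is of similar height throughout, and Tead1 is the tallest Tead segment in all 12 libraries.

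By a rule of smallest root mean square difference between centred log2 CPM profiles over the 12 libraries, the genes most like Yap1 among 10546 candidates were Impa1, Syncrip and Vdac3, with differences of 0.031, 0.034 and 0.035. The genes most like Wwtr1 were Sgpl1, Rnf44 and Rpf1, with differences of 0.043, 0.061 and 0.061. The profile of Yap1 was itself nearly flat, with an SD of 0.05 on the log2 scale, whereas that of Wwtr1 had an SD of 0.49.

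The TEAD proteins bring YAP and TAZ to DNA. Tead1 was higher in KO cells and Tead2 was lower, under both treatments, and no difference of Tead4 passed the test. Tead1 stood at 239, 235 and 238 CPM in KO cells with MJ041 and at 261, 242 and 255 CPM in KO cells with vehicle. In WT cells Tead1 stood at 181, 183 and 172 CPM with MJ041 and at 210.5, 197 and 176 CPM with vehicle. Every KO library was above every WT library. Tead1 had a log2 fold change, KO against WT, of 0.41 with MJ041 (SE 0.063, adjusted p = 0.000119) and 0.38 with vehicle (SE 0.063, adjusted p = 0.000219).

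Tead2, which is best known from embryonic tissues, stood at 14.3, 18.8 and 16.7 CPM in KO cells with MJ041 and at 16.6, 17.3 and 17.2 CPM in KO cells with vehicle. In WT cells Tead2 stood at 19.6, 24.3 and 25.9 CPM with MJ041 and at 22.1, 21.3 and 23.2 CPM with vehicle. The KO libraries were below the WT libraries without overlap under either treatment, although the highest KO library with MJ041 came close to the lowest WT one. Its log2 fold changes were -0.49 with MJ041 (SE 0.11, adjusted p = 0.0026) and -0.38 with vehicle (SE 0.11, adjusted p = 0.0118). Tead2 shares 13 exon bases with Cd37 on the opposite strand, which had 276 counts over the 12 libraries against 4068 for Tead2.

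Tead4 stood at 9.36, 16.4 and 12.5 CPM in KO cells with MJ041 and at 11.1, 11.4 and 11.7 CPM in KO cells with vehicle. It stood at 11.1, 11.5 and 12.8 CPM in WT cells with MJ041 and at 12.3, 9.37 and 10.7 CPM in WT cells with vehicle. The groups overlapped, and the libraries of KO cells with MJ041 spread most widely. Tead4 had a log2 fold change of 0.11 with MJ041 (95% interval -0.26 to 0.48) and 0.078 with vehicle (95% interval -0.29 to 0.45). Tead3, the remaining gene of the family, was higher in KO cells with vehicle by a log2 fold change of 0.48 (adjusted p = 0.00326) and stood at 0.22 with MJ041, where it did not pass (adjusted p = 0.123). Per length, Tead1 made up between 63.7% and 70.9% of the summed level of the 4 Tead genes in KO libraries and between 55.4% and 63.6% in WT libraries.

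**Figure D2:**
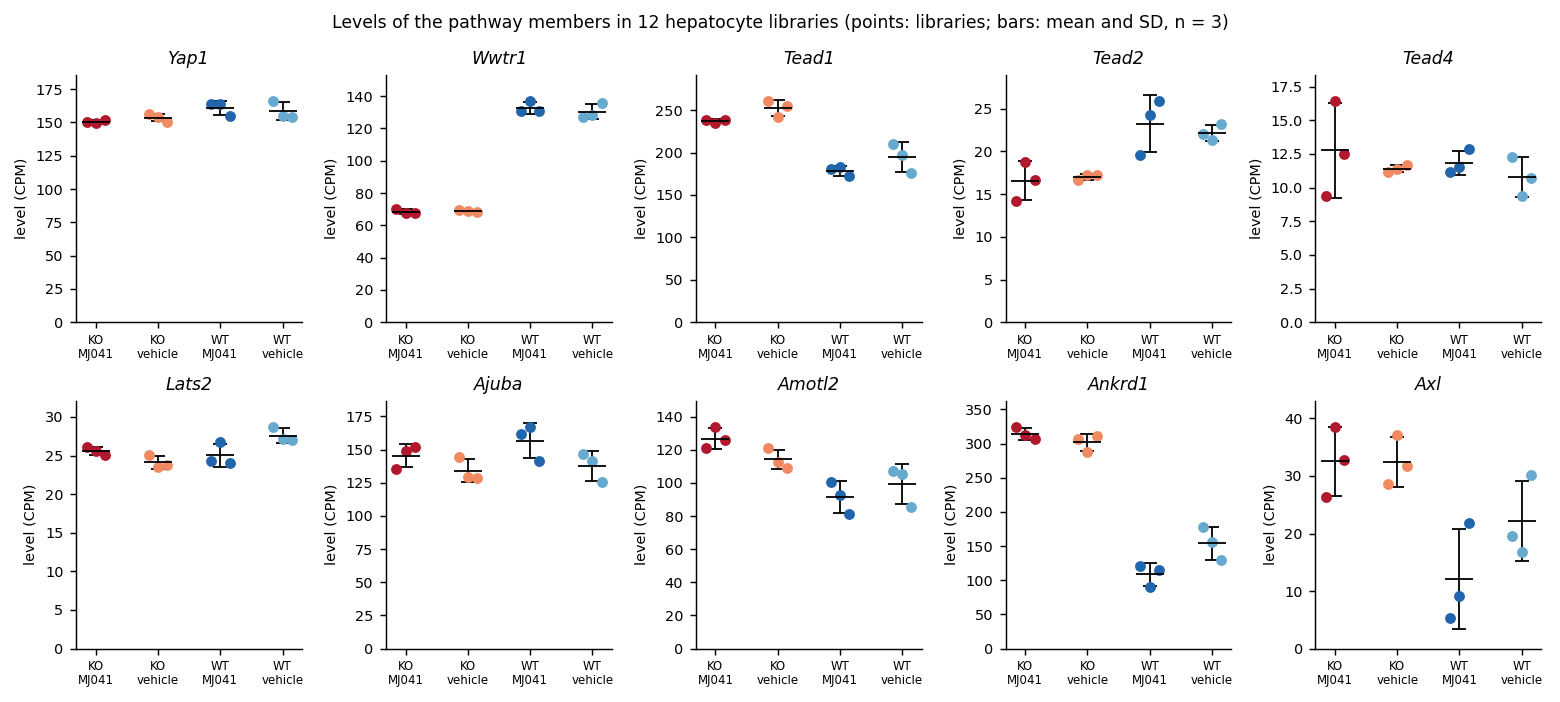
Level (CPM) of each of the 10 members by group, with 1 point per library and the mean and SD of 3 libraries as bars. KO libraries lie below WT libraries for Wwtr1 and Tead2 and above them for Tead1 and Ankrd1, and Axl is lowest in replicates 1 and 2 of WT cells with MJ041.

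Among the 5 target genes that are members, Ankrd1 had the log2 fold change farthest from 0 between KO and WT cells under both treatments. Ankrd1 encodes a nuclear ankyrin repeat protein of stressed muscle and injured tissue and is one of the most used readouts of YAP and TAZ. It stood at 324, 312 and 306 CPM in KO cells with MJ041 and at 307, 287 and 310.4 CPM in KO cells with vehicle. In WT cells Ankrd1 stood at 121, 89.8 and 115 CPM with MJ041 and at 177, 156 and 129 CPM with vehicle. Each KO library was above each WT library, and the MJ041-treated WT libraries were below the vehicle-treated ones. Its log2 fold change, KO against WT, was 1.53 with MJ041 (SE 0.12, adjusted p = 3.11e-07) and 0.97 with vehicle (SE 0.11, adjusted p = 1.26e-05), which are fold changes of 2.89 and 1.96.

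Amotl2 encodes an angiomotin family protein that binds YAP at cell junctions. It stood at 121, 134 and 126 CPM in KO cells with MJ041 and at 121, 113 and 109 CPM in KO cells with vehicle. In WT cells Amotl2 stood at 100.3, 92.8 and 81.3 CPM with MJ041 and at 107, 106 and 85.5 CPM with vehicle. The KO libraries were above the WT libraries without overlap under both treatments, narrowly so with vehicle. KO against WT, Amotl2 was at a log2 fold change of 0.47 with MJ041 (SE 0.092, adjusted p = 0.000799) and 0.20 with vehicle (SE 0.092, adjusted p = 0.086), where it did not pass. The vehicle value passed without a filter on low counts (0.21, adjusted p = 0.0257) and with the replicate number in the model (0.20, adjusted p = 0.0323). It also passed with stellate, endothelial and Kupffer markers as a covariate (0.22, adjusted p = 0.011). It passed in no fit that left out 1 library (adjusted p between 0.0609 and 0.514).

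Axl encodes a receptor tyrosine kinase for GAS6 and is also made by macrophages. It stood at 26.3, 38.5 and 32.8 CPM in KO cells with MJ041 and at 28.6, 37.1 and 31.8 CPM in KO cells with vehicle. In WT cells Axl stood at 5.25, 9.18 and 21.8 CPM with MJ041 and at 19.6, 16.8 and 30.1 CPM with vehicle. All KO libraries were above all WT libraries with MJ041, while with vehicle replicate 3 of WT cells overlapped the KO libraries. For Axl the log2 fold change was 1.42 with MJ041 (SE 0.37, adjusted p = 0.00542) and 0.55 with vehicle (SE 0.35, adjusted p = 0.205), where it did not pass.

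The level of Axl moved with markers of Kupffer cells, the macrophages of the liver, and also with those of endothelial cells. Within each group both marker lists ranked the 3 libraries by mean log2 CPM as Axl did. In WT cells with MJ041 the endothelial list was at 2.48, 2.62 and 3.62 in replicates 1 to 3. The stellate list was also lowest in replicates 1 and 2 of that group, at 0.0087 and -0.022. Of the 13 listed Kupffer markers 12 were tested, and their summed level ranged from 477 to 503 CPM in KO cells with MJ041, from 464 to 516 CPM in KO cells with vehicle, from 192 to 380 CPM in WT cells with MJ041 and from 255 to 510.4 CPM in WT cells with vehicle. Of the 12, under both treatments 2 (Mpeg1 and Vsig4) were called higher in KO than in WT cells, 1 (Cd68) was called lower and 9 were not called. The shares of all tested genes were 26.8% higher and 27.6% lower with MJ041, and 27.5% and 26.9% with vehicle. Mpeg1 alone averaged 281 CPM in KO cells with MJ041 and 281 CPM in KO cells with vehicle, against 78.9 CPM in WT cells with MJ041 and 131 CPM in WT cells with vehicle. Cd163 was at 0 counts in all libraries but those of KO cells with vehicle, and the defining marker Clec4f averaged 9.54 CPM in KO cells with MJ041, 10.2 CPM in KO cells with vehicle, 5.16 CPM in WT cells with MJ041 and 8.09 CPM in WT cells with vehicle. With the mean level of stellate, endothelial and Kupffer markers as a covariate, the log2 fold change of Axl was 0.65 with MJ041 (adjusted p = 0.00155) and 0.50 with vehicle (adjusted p = 0.00124). Without replicates 1 and 2 of WT cells with MJ041, which leaves 1 library in that group and takes its spread from the other groups, it was 0.57 with MJ041 (adjusted p = 0.143) and 0.55 with vehicle (adjusted p = 0.0362).

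**Figure D3:**
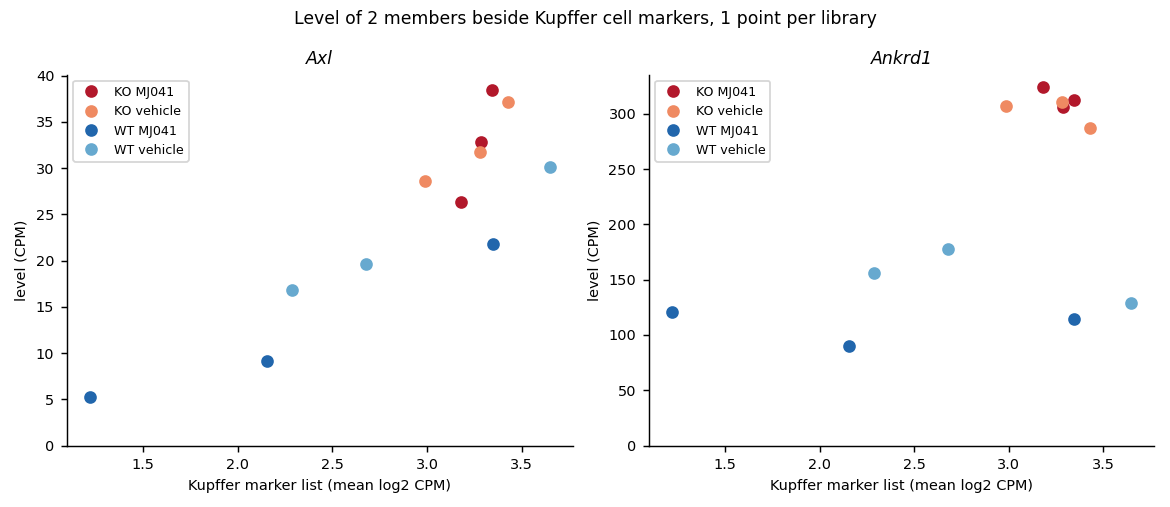
Level (CPM) of Axl, left, and Ankrd1, right, against the mean log2 CPM of the Kupffer marker list, with 1 point per library coloured by group. The WT libraries with the fewest Kupffer marker reads, at 1.22 and 2.16, have the lowest Axl levels, 5.25 and 9.18 CPM, while Ankrd1 separates KO from WT libraries at similar marker levels.

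The 250 bases upstream of the start site are shown for Ankrd1, Amotl2 and Axl, the 3 target genes among the members called higher in KO cells with MJ041. Each holds the core motif that TEAD proteins recognise, as do members that were not called higher. The sequences are RefSeq promoter windows of GRCm38.p6, read 5′ to 3′ on the strand of the gene, with capitals marking GGAATG or, where the motif lies on the other strand, CATTCC.
Ankrd1, chr19:36119845-36120094, minus strand: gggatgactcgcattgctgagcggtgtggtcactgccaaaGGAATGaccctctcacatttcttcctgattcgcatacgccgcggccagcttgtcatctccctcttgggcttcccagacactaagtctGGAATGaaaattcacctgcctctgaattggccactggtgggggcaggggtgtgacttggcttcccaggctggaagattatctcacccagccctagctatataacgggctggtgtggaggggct
Amotl2, chr9:102717554-102717803, plus strand: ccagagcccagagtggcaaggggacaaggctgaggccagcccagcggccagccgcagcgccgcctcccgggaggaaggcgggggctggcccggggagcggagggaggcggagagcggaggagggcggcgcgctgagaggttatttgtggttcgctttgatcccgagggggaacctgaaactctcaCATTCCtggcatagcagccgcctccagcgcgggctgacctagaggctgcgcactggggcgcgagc
Axl, chr7:25788734-25788983, minus strand: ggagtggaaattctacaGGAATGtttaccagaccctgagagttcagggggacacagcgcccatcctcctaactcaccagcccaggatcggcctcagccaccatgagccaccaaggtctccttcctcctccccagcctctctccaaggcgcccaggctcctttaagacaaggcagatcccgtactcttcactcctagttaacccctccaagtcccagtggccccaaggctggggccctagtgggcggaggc
In Ankrd1 the motif began at -210 and -123 relative to the start site, in Amotl2 at -65 and in Axl at -233. A window was found for 8 of the 10 members, all but Tead1 and Tead4, and 6 of them held GGAATG on either strand, the others being Ajuba, Wwtr1 and Yap1. Of these others, Wwtr1 was called lower in KO cells, and Ajuba and Yap1 were not called. Of all 32851 promoter windows of that length, 12.6% held it. That share is per window, while the 8 members had 10 windows and were chosen by name as genes of this pathway. Neither TGACTCA, the AP-1 motif, nor CAAAGTCC, the core of the HNF4A motif, searched on both strands, was in a window of a member, against 4.46% and 1.2% of all windows. No marked GGAATG overlapped another motif that was searched. A match is a description of these letters and not a measured binding site.

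Lats2 and Ajuba are target genes that restrain or tune the pathway. Lats2 encodes the kinase that phosphorylates YAP and TAZ. It stood at 26.1, 25.6 and 25.1 CPM in KO cells with MJ041 and at 25.1, 23.5 and 23.8 CPM in KO cells with vehicle. In WT cells Lats2 stood at 24.3, 26.7 and 24.0 CPM with MJ041 and at 28.7, 27.1 and 27.0 CPM with vehicle. With vehicle the KO libraries were below the WT libraries, and with MJ041 they overlapped. Lats2 was at a log2 fold change, KO against WT, of 0.033 with MJ041 (SE 0.065, adjusted p = 0.694) and -0.19 with vehicle (SE 0.064, adjusted p = 0.0217). The call with vehicle was lost, with the value between -0.20 and -0.17, with DESeq2 (adjusted p = 0.0596), without a filter on low counts (adjusted p = 0.204), and without replicate 2 of KO cells with vehicle (adjusted p = 0.0698) or replicate 1 of WT cells with vehicle (adjusted p = 0.0752). The exons of Lats2 share 2955 of their 6971 bases with the predicted gene Gm49361 on the same strand, which had 0 counts in all libraries. That does not show how reads over the shared bases were handled, so the level of Lats2 may be undercounted.

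Ajuba encodes a LIM protein that binds and inhibits LATS kinases at cell junctions. It stood at 135, 149 and 152 CPM in KO cells with MJ041 and at 144, 129 and 129 CPM in KO cells with vehicle. In WT cells Ajuba stood at 162, 167 and 142 CPM with MJ041 and at 147, 141 and 125 CPM with vehicle. The KO and WT libraries overlapped under both treatments. For Ajuba the log2 fold change was -0.11 with MJ041 (95% interval -0.28 to 0.063, adjusted p = 0.267) and -0.041 with vehicle (95% interval -0.21 to 0.13, adjusted p = 0.687).

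Counted over the members with MJ041, 4 of 10 were called higher in KO than in WT cells (Tead1, Amotl2, Ankrd1 and Axl), where 26.8% of all tested genes were called higher, and 2 were called lower (Wwtr1 and Tead2), where 27.6% were called lower. With vehicle, 2 members were called higher (Tead1 and Ankrd1) beside 27.5% of all genes, and 3 were called lower (Wwtr1, Tead2 and Lats2) beside 26.9%. The shares among the members were near those of all genes. With MJ041 the KO libraries lay entirely above the WT libraries for 4 members and entirely below them for 3, against 29.4% and 29.8% of all genes. With vehicle they lay above for 3 members and below for 3, against 31.6% and 31.5% of all genes. The median log2 fold change of the 10 members was 0.072 with MJ041, against 0.022 over all genes, and 0.019 with vehicle, against -0.0020 over all genes. The cholangiocyte markers, whose mean log2 CPM lay between 3.21 and 3.40 in KO libraries and between 2.08 and 2.41 in WT libraries, did not overlap between the genotypes on that scale. Their summed level ranged from 511 to 720 CPM in KO cells with MJ041, from 569 to 733 CPM in KO cells with vehicle, from 325 to 438 CPM in WT cells with MJ041 and from 409 to 623 CPM in WT cells with vehicle, and 1 of the 12 listed genes was at 0 in 1 library and none in the others. These sums overlapped between KO and WT cells with vehicle. Of 9 tested, 6 were called higher and 1 lower in KO cells with vehicle, beside 27.5% and 26.9% of all genes. With MJ041, 5 were called higher and 1 lower, beside 26.8% and 27.6% of all genes. The mean level of these markers nearly coincides with genotype. With it as a covariate, 483 genes were called with MJ041, against 8118, and 553 with vehicle, against 8126. A call lost in that fit therefore does not show that a member depends on these markers. In the same fit Wwtr1 was the only member still called, under both treatments, and Ankrd1 was at 1.45 with MJ041 (adjusted p = 0.0876) and 0.89 with vehicle (adjusted p = 0.275). The other calls were lost in that fit too, although most of the values did not shrink. Tead1 was at 0.51 with MJ041 (adjusted p = 0.268) and 0.48 with vehicle (adjusted p = 0.283). Tead2 was at -0.97 with MJ041 (adjusted p = 0.195) and -0.87 with vehicle (adjusted p = 0.244), farther from 0 than without the covariate. Amotl2 was at 0.53 with MJ041 (adjusted p = 0.457). Among these other calls, the values that shrank or turned were those of Axl, at -0.41 with MJ041 (adjusted p = 0.892), and of Lats2, at -0.022 with vehicle (adjusted p = 0.971). The values of Ankrd1 had also shrunk slightly, from 1.53 with MJ041 and 0.97 with vehicle.

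The second question was how the members responded to MJ041. In WT cells Ankrd1 was the only member called, lower with MJ041 by a log2 fold change of -0.50 (SE 0.11, adjusted p = 0.0444), a ratio of 0.705. Its MJ041-treated libraries, at 121, 89.8 and 115 CPM, lay below the vehicle-treated ones, at 177, 156 and 129 CPM. Of all tested genes, 2.21% were called in WT cells, 177 of them higher and 152 lower, a split of 91 higher and 164 lower when libraries were scaled by their totals alone. The call of Ankrd1 was close to the threshold and was lost in 9 of 12 fits that left out 1 library, with adjusted p between 0.0165 and 0.204 over the 12. Those 9 left out any of the KO libraries, which share the estimate of the spread, replicate 1 or 2 of WT cells with MJ041, or replicate 1 of WT cells with vehicle. The call was kept with DESeq2 (adjusted p = 0.00132), with voom (adjusted p = 0.0427) and with the replicate number in the model (adjusted p = 0.0267). It was also kept without a filter on low counts (adjusted p = 1.11e-06) and under other scalings (adjusted p = 0.0444 and 0.0416). It was lost with only the groups compared (adjusted p = 0.179) and with cholangiocyte markers as a covariate (adjusted p = 0.063). Without replicates 1 and 2 of WT cells with MJ041, which were low in Kupffer, endothelial and stellate markers, Ankrd1 was at -0.42 (adjusted p = 0.981), a value near that of all libraries, from a fit that leaves 1 library in the group and takes its spread from the others. With those markers as a covariate it was at -0.54 (adjusted p = 0.138).

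Axl was at -0.87 in WT cells with MJ041 against vehicle (95% interval -1.68 to -0.06, adjusted p = 0.204) and did not pass. Its MJ041-treated libraries were low in replicates 1 and 2 and overlapped the vehicle-treated ones in replicate 3, and without replicate 3 of WT cells with MJ041 the value was -1.62 and passed (adjusted p = 0.00406). With the stellate, endothelial and Kupffer markers as a covariate it was -0.25 (adjusted p = 0.462), and without replicates 1 and 2 it was -0.022. The part of those cells in the level of Axl was not tested further.

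The other 8 members in WT cells had log2 fold changes between -0.14 (Lats2, adjusted p = 0.229) and 0.19 (Ajuba, adjusted p = 0.204). The 95% intervals of Wwtr1, -0.072 to 0.12, and of Yap1, -0.079 to 0.12, bound the response of the coactivator genes to MJ041 in WT cells. Lats2 was the remaining member whose MJ041-treated WT libraries lay entirely below the vehicle-treated ones. The share of all tested genes that did so is not given here, so separation alone is not read as a response.

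In KO cells no member was called with MJ041 against vehicle by edgeR, by DESeq2 or by voom, and none had an unadjusted p below 0.05. The share of all genes called was 0%, with 414 genes at an unadjusted p below 0.05. The log2 fold changes of the members lay between -0.090 (Tead1) and 0.16 (Tead4). For Ankrd1 the value was 0.058 with a 95% interval of -0.18 to 0.30. Tead1 was lower in each MJ041-treated KO library, at 239, 235 and 238 CPM, than in any vehicle-treated one, at 261, 242 and 255 CPM. Amotl2 was higher in each MJ041-treated KO library than in any vehicle-treated one, narrowly so at 121 CPM, and its log2 fold change was 0.15 (95% interval -0.047 to 0.35). The share of all tested genes whose MJ041-treated and vehicle-treated KO libraries did not overlap is not given here. The separations of Tead1 and Amotl2 are therefore not read as a response.

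The third question was whether the response to MJ041 differed between KO and WT cells. No member passed the interaction test in the main edgeR fit, where 0% of all genes were called. In that fit 1980 genes had an unadjusted p below 0.05, while DESeq2 called 214 genes and voom 0. Ankrd1 and Lats2 were the 2 members with an unadjusted p below 0.05. The response of Ankrd1 in KO cells minus that in WT cells was 0.56 on the log2 scale (SE 0.16, 95% interval 0.22 to 0.91, adjusted p = 0.191), and DESeq2 called it (adjusted p = 0.0468). Without a filter on low counts, edgeR called 886 of 30185 genes, among them Ankrd1 (0.55, adjusted p = 0.000366) and Axl (0.86, adjusted p = 0.00872). For Lats2 the difference was 0.23 (SE 0.091, adjusted p = 0.304), for Amotl2 it was 0.27 (SE 0.13, adjusted p = 0.391) and for Axl it was 0.87 (SE 0.51, adjusted p = 0.486). Without replicate 3 of WT cells with MJ041 the difference of Axl was 1.62 and passed (adjusted p = 0.0244). The comparisons between genotypes and the responses to MJ041 share libraries, so the larger difference of Ankrd1 between KO and WT cells with MJ041 and its lower level in WT cells with MJ041 rest on the same 3 libraries.

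**Figure D4:**
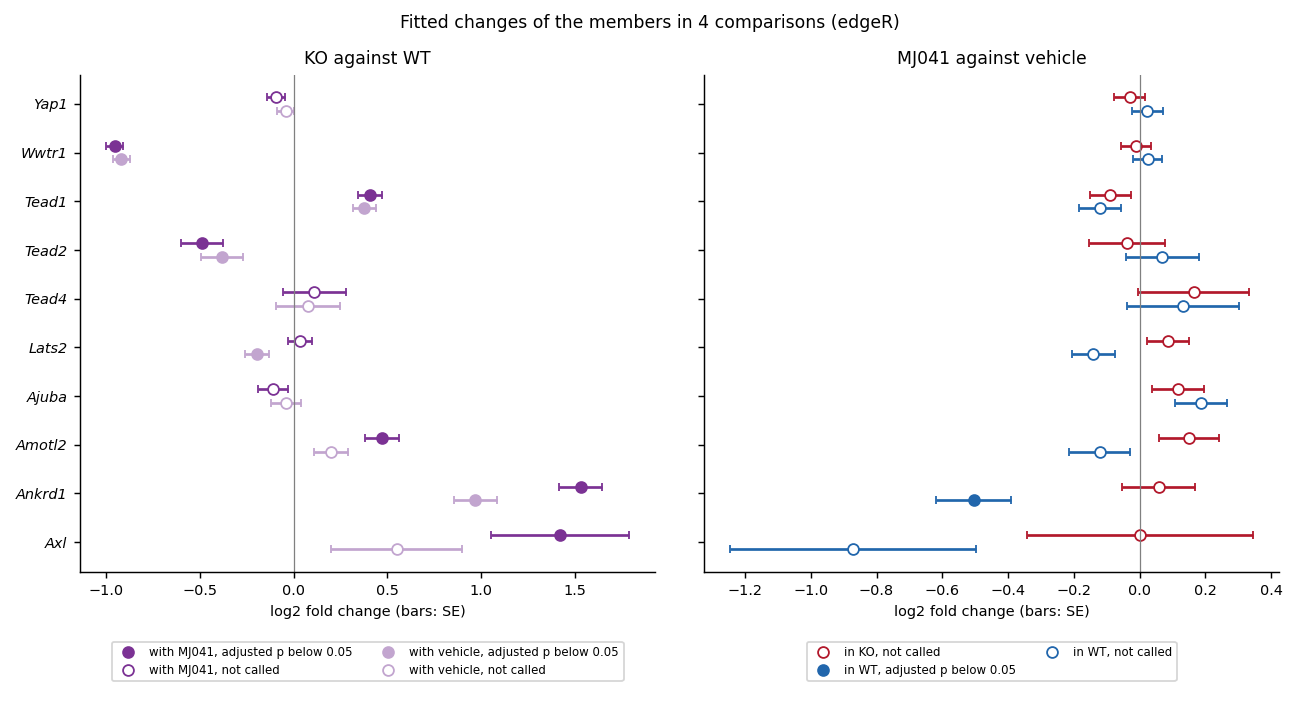
Log2 fold change of each member, KO against WT on the left and MJ041 against vehicle on the right, as points with bars of 1 SE and filled where the adjusted p was below 0.05. Wwtr1 is near -0.9 under both treatments, Ankrd1 is at 1.53 with MJ041 and 0.97 with vehicle, and the one filled point on the right is Ankrd1 in WT cells at -0.50.

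The other genes of the pathway were read from 4 lists that also contain members. Of the 10 core kinases and scaffolds, with vehicle 2 were called higher and 7 lower in KO cells, beside 27.5% and 26.9% of all genes, with a median log2 fold change of -0.27, against -0.0020 over all genes. Lats1, the partner of Lats2, averaged 93.1 ± 3.71 CPM in KO cells and 134 ± 3.29 CPM in WT cells with vehicle, -0.52 on the log2 scale (adjusted p = 5.9e-06). Stk4, the gene of MST1, averaged 97.2 ± 3.49 CPM in KO cells and 132 ± 1.97 CPM in WT cells, -0.44 on the log2 scale (adjusted p = 2.28e-05). In the other direction Wwc1, which encodes the scaffold KIBRA that activates LATS kinases, averaged 176 ± 6.60 CPM in KO cells and 106 ± 9.65 CPM in WT cells, 0.73 on the log2 scale (adjusted p = 1.65e-05). With MJ041 1 gene of the list was higher and 7 were lower in KO cells, beside 26.8% and 27.6% of all genes. None was called for MJ041 against vehicle in either genotype, where 2.21% of all genes were called in WT cells and 0% in KO cells.

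Of 31 upstream regulators, 7 were called higher and 9 lower in KO cells with vehicle, at a median of -0.041, which is near the 27.5% and 26.9% of all genes called. Rassf1, a regulator of MST kinases, was lower at 65.4 ± 1.02 CPM in KO cells and 166 ± 2.35 CPM in WT cells, -1.35 on the log2 scale (adjusted p = 3.37e-09). The kinase genes Map4k2 and Tnik, whose family can activate LATS kinases beside MST1 and MST2, were higher in KO cells by 0.75 (adjusted p = 1.4e-06) and 1.38 (adjusted p = 4.24e-06). In WT cells with MJ041, Amot, which encodes angiomotin, was higher by 0.38 (adjusted p = 0.0444), and Ptpn14, a phosphatase that holds YAP outside the nucleus and is also listed as a target, was higher by 0.42 (adjusted p = 0.0435). These 2 genes fall outside the naming rule and were named after their values were seen. In that comparison 2.21% of all tested genes were called. Both calls were lost with only the groups compared and with stellate, endothelial and Kupffer markers as a covariate, where no gene was called. Among 10 transcription cofactors 8 were tested, with 2 higher and 2 lower in KO than in WT cells with vehicle, beside 27.5% and 26.9% of all genes. The cofactor genes Vgll1 and Vgll2 had 0 counts in all 12 libraries.

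Of 23 target genes 22 were tested, and 5 were called higher and 8 lower in KO cells with vehicle, at a median of -0.057, beside 27.5% and 26.9% of all genes. Without the members, 4 were higher and 7 lower, at a median of -0.28. Myof, a membrane repair protein gene, was higher at 250.4 ± 2.88 CPM in KO cells and 149 ± 13.3 CPM in WT cells (log2 fold change 0.75, adjusted p = 5.89e-06). Nt5e, the gene of CD73, was lower at 91.9 ± 4.92 CPM in KO cells and 206 ± 2.44 CPM in WT cells (log2 fold change -1.16, adjusted p = 5.13e-09). Fjx1, the homologue of fly four-jointed, was lower at 4.50 ± 0.703 CPM in KO cells and 19.8 ± 2.58 CPM in WT cells (log2 fold change -2.14, adjusted p = 2.78e-07). The matricellular genes Ccn2 and Ccn1, the most used YAP targets beside Ankrd1, were chosen after their values were seen. Ccn2 averaged 279 ± 6.73 CPM in KO cells and 138 ± 5.87 CPM in WT cells with vehicle, 1.01 higher on the log2 scale (adjusted p = 6.55e-06). Ccn1 averaged 807 ± 15.7 CPM in KO cells and 783 ± 27.7 CPM in WT cells (adjusted p = 0.586, not called). With MJ041 the target list had 10 genes called higher and 6 lower in KO cells, at a median of 0.31, beside 26.8% and 27.6% of all genes. Without the members, 7 were higher and 6 lower, at a median of 0.14. Marker lists of other cells also had higher medians, KO against WT, with MJ041 than with vehicle. The medians were 0.44 and -0.48 for stellate, 0.56 and -0.13 for endothelial, and 0.99 and 0.29 for Kupffer markers. Replicates 1 and 2 of WT cells with MJ041 were low in these markers, and the part of those cells in the target list was not tested. In WT cells 1 target was higher with MJ041 (Ptpn14) and 2 were lower, Ankrd1 and the tissue factor gene F3, which was named after its values were seen and was at -0.74 (adjusted p = 0.0294). Of all tested genes, 2.21% were called there. These calls were lost with only the groups compared and with stellate, endothelial and Kupffer markers as a covariate, where no gene was called.

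**Figure D5:**
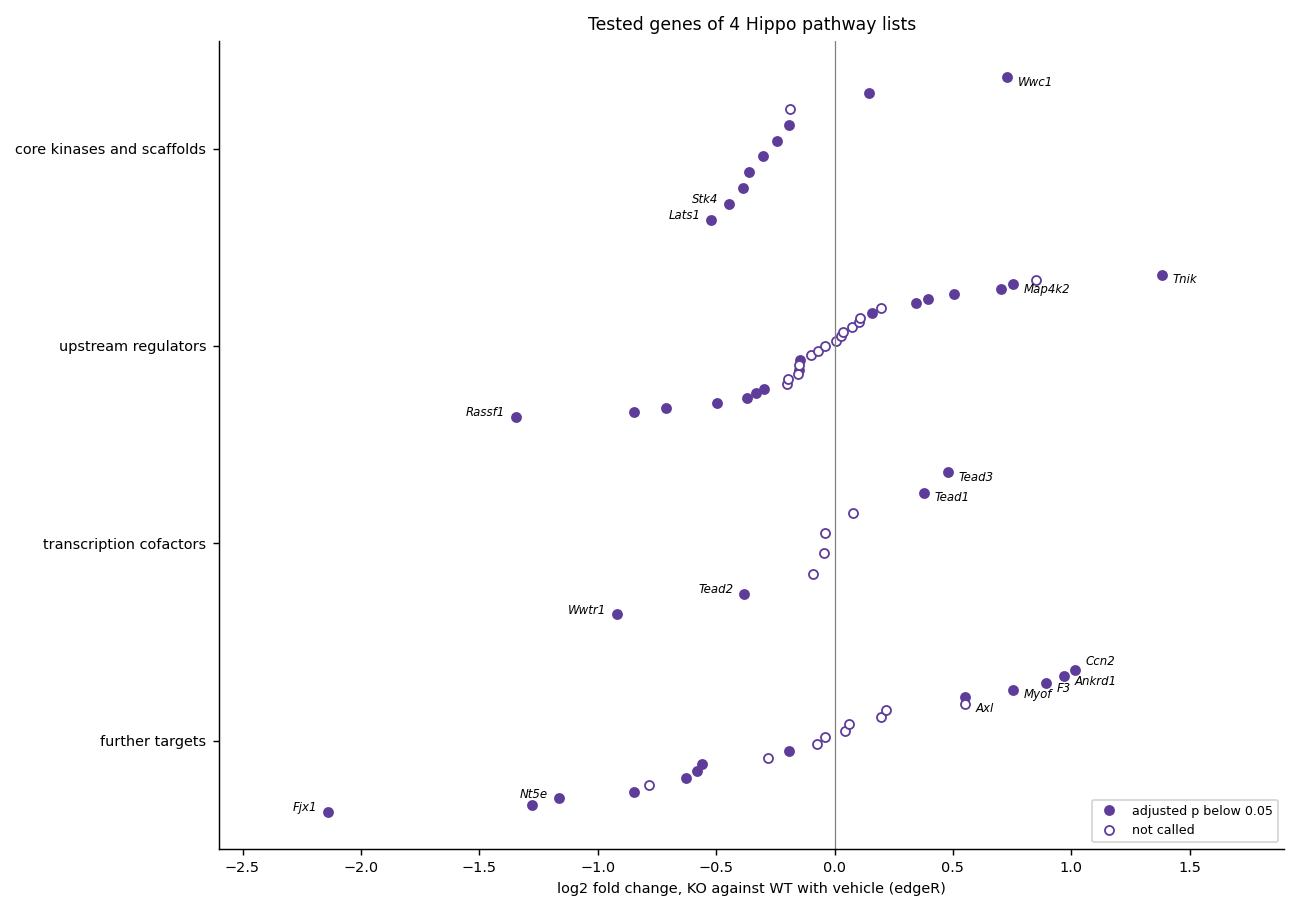
Log2 fold change, KO against WT with vehicle, of the tested genes of 4 Hippo pathway lists, 1 point per gene, filled where the adjusted p was below 0.05. Of the core kinases and scaffolds 7 filled points lie left of 0 and 2 right of it, and the target genes run from Fjx1 at -2.14 to Ccn2 at 1.01.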

How the data were processed

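RNA of 12 samples was measured by sequencing of stranded libraries. The deposited file holds raw counts per Ensembl gene, which the authors left unnormalized. Per the submitters' processing notes, the tools were STAR 2.7.10b, featureCounts, Trimmomatic 0.34, FastQC and DESeq2, and the build was mm39, while strand and multimapping settings are not given in the sources used here, so close paralogs may share reads. Symbols were found for 52081 of 55414 identifiers and for 14885 of 14919 tested genes. Lengths came from GENCODE vM21, on GRCm38, and promoters from RefSeq.

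The tests were run with edgeR 4.0.16 in R 4.3.3, and alternatives with DESeq2 1.42.0 and voom of limma 3.58.1. Genes passed filterByExpr (minimum count 10), libraries were scaled by TMM, and 1 quasi-likelihood model over the 12 libraries had 1 coefficient for each group, with Benjamini-Hochberg adjustment over all tested genes. CPM use the library size over tested genes. SE was obtained by dividing the absolute log2 fold change by the square root of F, and 95% intervals use it. Counts of replicate libraries differed beyond counting noise (chi-square over its degrees of freedom 4.73 to 16.0), so each was counted as 1 sample, which does not show that they came from separate animals. The fit was tested on simulated data. The members and lists were chosen with earlier results of these data known. The naming rule takes every member, the 3 other genes of each list with the smallest adjusted p among those called in KO against WT with vehicle, and the 3 genes most like Yap1 and Wwtr1. Alternatives were other scalings, DESeq2, voom, no filter, only the groups compared, a replicate block, marker covariates, and fits without 1 or 2 libraries.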

Additional observations from a re-analysis of the deposited data

How the results depend on the processing

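Of the 12 called member values, 263 of 264 alternative values had the same sign and 237 were still called. For the called members, the sign changed only for Axl, KO against WT with MJ041, at -0.41 with cholangiocyte markers as a covariate. That covariate nearly coincides with genotype and left 553 genes and 1 member (Wwtr1) called with vehicle and 483 genes and 1 member called with MJ041, against 8126 genes and 5 members, and 8118 genes and 6 members. For KO against WT, leaving out 1 library gave 7321 to 8216 genes and 6 to 7 members with MJ041, and 7389 to 8495 genes and 4 to 6 members with vehicle. For MJ041 against vehicle in WT cells, 329 genes and 1 member were called. The counts were 906 genes with DESeq2, 1667 genes and 2 members without a filter, 0 genes (2561 at an unadjusted p below 0.05) and 0 members with only the groups compared, 649 genes with the replicate block, 0 genes (1857 at an unadjusted p below 0.05) and 0 members with stellate, endothelial and Kupffer (non-parenchymal) markers as a covariate, 137 genes and 0 members with cholangiocyte markers, 0 genes (747 at an unadjusted p below 0.05) and 0 members without WT MJ041 libraries 1 and 2, and 0 to 2059 genes and 0 to 2 members without 1 library, the most without WT MJ041 replicate 3. In KO cells 15 genes were called without a filter. For the interaction, 214 genes and 1 member were called with DESeq2, 886 genes and 2 members without a filter, and 0 to 852 genes and 0 to 1 member without 1 library. The cause of these changes was not tested.

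Same-numbered libraries had correlations of deviations from -0.0994 to 0.499, and in no pair of groups were all above 0.1. The highest values were within a genotype. They were 0.349, 0.458 and 0.039 between the KO groups and -0.0103, 0.203 and 0.499 between the WT groups. Whether same-numbered libraries of a genotype share a preparation cannot be told from these values, and the main tests treat them as unpaired. The replicate block was common to both genotypes, and a block within each genotype was not fitted. The replicate block moved the count in WT cells to 649 genes and added the call of Amotl2, KO against WT with vehicle, at 0.20 (adjusted p = 0.0323). It also turned the sign of Axl, MJ041 against vehicle in KO cells, to -0.0075.

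Uncalled values near 0 changed sign as follows. KO against WT with MJ041, Ajuba was at 0.039 with non-parenchymal markers, 0.065 with cholangiocyte markers and 0.031 without WT MJ041 libraries 1 and 2, Tead4 was at -0.043, -0.23 and -0.013 in those fits, and Yap1 was at 0.063 with cholangiocyte markers. With vehicle and cholangiocyte markers, Ajuba was at 0.13, Axl at -1.43, Tead4 at -0.27 and Yap1 at 0.12. For MJ041 in KO cells, Axl was at -0.0059 with DESeq2 size factors, -0.0075 with DESeq2, -0.0052 with voom, -0.0034 without a filter, -0.0028 with only the groups compared, -0.096 with non-parenchymal markers and -0.00079 without WT MJ041 libraries 1 and 2. For MJ041 in WT cells, Wwtr1 was at -0.035 with library totals alone and -0.0019 with only the groups compared, and Yap1 was at -0.037 and -0.0041 in those fits, -0.016 with non-parenchymal markers and -0.032 without WT MJ041 libraries 1 and 2. For the interaction, Ajuba was at 0.066 with non-parenchymal markers and 0.074 without WT MJ041 libraries 1 and 2, Tead4 at -0.0074 with voom and -0.11 and -0.090 in those fits, and Wwtr1 at 0.024 and Yap1 at 0.0076 with library totals alone.

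Leaving out 1 library turned these uncalled values, with ranges as follows. KO against WT with MJ041, Lats2 ranged from -0.0014 to 0.057 and Tead4 from -0.13 to 0.28. With vehicle, Ajuba ranged from -0.14 to 0.0018 and Tead4 from -0.056 to 0.18. For MJ041 in KO cells, Axl ranged from -0.14 to 0.13, Tead2 from -0.15 to 0.057 and Tead4 from -0.067 to 0.34. For MJ041 in WT cells, Tead2 ranged from -0.018 to 0.18, Wwtr1 from -0.018 to 0.036 and Yap1 from -0.024 to 0.056. For the interaction, Ajuba ranged from -0.14 to 0.012, Tead1 from -0.031 to 0.11, Tead2 from -0.22 to 0.012, Tead4 from -0.17 to 0.24 and Wwtr1 from -0.050 to 0.0017.

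With 3 libraries a group, Tead4 and Axl had the widest intervals of the members. The ratio of Wwtr1 to Yap1 with the longest transcript as length, an alternative chosen after seeing the data, was 0.512 and 0.505 in KO cells with MJ041 and with vehicle, and 0.928 in both WT groups.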
